A study of Homo sapiens with 13 samples.

Results

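The interferon-stimulated genes are a set of antiviral and immune-signalling genes whose transcription rises when a cell senses interferon. The list used here holds 41 genes, named for their known response to interferon. On the arrays, 40 of the 41 were measured, out of 11963 genes in all, and the other listed gene is not analysed here. Each gene was represented by the probe set, a group of short probes read as a single signal, with the highest mean among those assigned to that gene alone. For 29 of the 40 genes this was the only such probe set, and 11 genes had several.

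The 13 Affymetrix arrays measured RNA of cells from a human non-small cell lung carcinoma (NSCLC). The controls were non-metastatic cells without a luciferase reporter (2 arrays) and with it (2 arrays). The other 9 arrays held the lines M1, M4 and M5, with 3 arrays each, which grew out of bone lesions in mice given control cells by intracardiac injection. Every array carried a pool of 3 groups of cells, so a signal is a mean over pools, and fewer expressing cells cannot be told apart from less RNA per cell. The labels name no parental cell line, no interferon treatment, no drug and no mouse strain. M1, M4 and M5 are each a single line, and their arrays are labelled as biological replicates without stating separate cultures, so p-values measure only the spread between these arrays, which may be technical.

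In the pathway as it is known, type I interferons bind a receptor made of IFNAR1 and IFNAR2, which acts through the kinases JAK1 and TYK2. The activated transcription factor complex, which contains IRF9, binds the interferon-stimulated response element (ISRE), a DNA motif built on repeats of GAAA, in the promoters of target genes. Type II interferon acts through another element, the gamma-activated site (GAS). Many of the products block viral RNA or viral entry, and tumour cells can show a basal level of these genes without added interferon.

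A motif match can be seen in the promoters of the genes whose group means differed most among those with a match, which is why these 6 are shown. The match is to the ISRE in all of them but OAS1, where it is to the GAS. The search required 2 bases between the copies of GAAA. Near its end the OAS1 line also holds gaaacgaaa, where the copies lie closer, and this was not counted. Each line holds the 250 bases before the gene start, read 5′ to 3′ on the gene's strand, from RefSeq (GRCh38.p14). Capitals mark the ISRE core GAAANNGAAA, or its reverse complement with TTTC on both sides, and in OAS1 the GAS core TTCNNNGAA. The positions are chr1:89065209-89065458 (minus strand) for GBP1, chr15:88638766-88639015 (plus) for ISG20, chr1:78620198-78620447 (plus) for IFI44L, chr12:112906712-112906961 (plus) for OAS1, chr17:78979924-78980173 (minus) for LGALS3BP and chr11:320861-321110 (minus) for IFITM3.
GBP1: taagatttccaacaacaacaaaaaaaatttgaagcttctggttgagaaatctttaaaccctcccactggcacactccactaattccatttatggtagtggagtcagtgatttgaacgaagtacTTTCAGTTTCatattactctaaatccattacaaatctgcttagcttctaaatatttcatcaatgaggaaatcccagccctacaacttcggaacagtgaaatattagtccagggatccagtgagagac
ISG20: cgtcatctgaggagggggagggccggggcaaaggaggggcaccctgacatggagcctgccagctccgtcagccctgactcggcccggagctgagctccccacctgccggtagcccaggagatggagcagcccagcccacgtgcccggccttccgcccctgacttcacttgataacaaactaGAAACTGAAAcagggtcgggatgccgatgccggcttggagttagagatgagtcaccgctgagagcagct
IFI44L: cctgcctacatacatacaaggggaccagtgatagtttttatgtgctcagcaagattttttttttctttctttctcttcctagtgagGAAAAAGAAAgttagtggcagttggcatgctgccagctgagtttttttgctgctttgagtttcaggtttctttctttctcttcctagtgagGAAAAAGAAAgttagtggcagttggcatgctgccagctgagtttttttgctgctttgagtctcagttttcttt
OAS1: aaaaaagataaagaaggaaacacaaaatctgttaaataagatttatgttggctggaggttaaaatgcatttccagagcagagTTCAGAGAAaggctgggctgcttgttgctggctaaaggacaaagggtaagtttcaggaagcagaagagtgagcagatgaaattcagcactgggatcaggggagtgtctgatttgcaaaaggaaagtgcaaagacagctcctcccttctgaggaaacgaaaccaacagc
LGALS3BP: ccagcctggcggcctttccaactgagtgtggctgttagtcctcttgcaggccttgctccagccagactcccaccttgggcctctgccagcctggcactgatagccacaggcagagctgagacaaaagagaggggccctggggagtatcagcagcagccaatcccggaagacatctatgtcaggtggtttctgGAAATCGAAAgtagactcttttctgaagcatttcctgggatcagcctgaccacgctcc
IFITM3: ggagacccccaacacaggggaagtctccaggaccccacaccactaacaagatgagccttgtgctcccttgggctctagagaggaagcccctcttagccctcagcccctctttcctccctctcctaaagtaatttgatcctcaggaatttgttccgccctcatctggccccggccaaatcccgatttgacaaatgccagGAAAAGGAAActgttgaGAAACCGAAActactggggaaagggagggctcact

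A promoter entry was found for 31 of the 40 genes, and 9 had none (IFIT2, IFITM2, MX2, OAS2, OASL, IRF7, USP18, GBP2 and TRIM22). Both strands of a 300-base window, 250 bases before the start and 50 after it, were searched. The ISRE core was present in 21 of the 31 (67.7%), against 3.57% of all 35116 promoters in the RefSeq table and 3.02% of the 14058 promoters of genes on the array. In 13 of the 31 it occurred more than once. The GAS core was present in 8 of the 31 (25.8%), against 7.66% of all promoters. In BST2, IFI27 and IFITM1 a GAS match shared bases with an ISRE match. A match is a description of the letters and not evidence of binding.

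**Figure D1:**
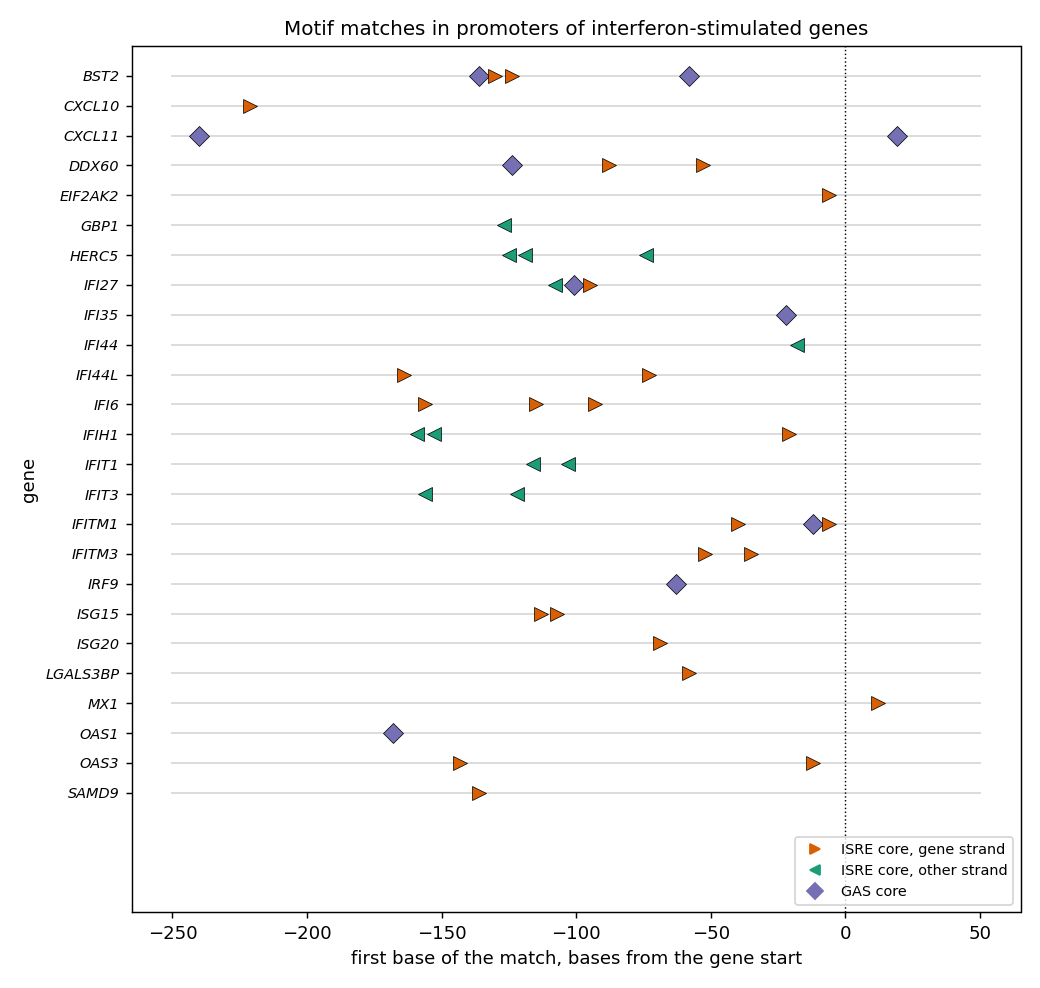
Positions of the ISRE core (triangles pointing right for the gene's strand, left for the other strand) and the GAS core (diamonds) in the 300-base promoter windows of the interferon-stimulated genes with a match. The x axis gives the first base of the match relative to the gene start in bases, and the y axis lists the genes. The ISRE core occurred in 21 of the 31 promoters, in most of them before the start.

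Several facts about the arrays bear on every value that follows. The 62 Affymetrix control probe sets, most of them spike-ins, fell into 4 sets of arrays. Set 1 held replicate 1 of both kinds of control and M1 replicate 2. Set 2 held replicate 2 of both kinds of control and replicate 1 of M1, M4 and M5. Set 3 held M4 replicates 2 and 3 and M1 replicate 3, and set 4 held only M5 replicates 2 and 3. The 45 spike-in probe sets alone gave 3 sets, in which sets 1 and 3 fell together, so the split between those 2 rests on the other control probe sets. Tests are therefore given without and with the array set as a block. With the block, M5 against control rests on M5 replicate 1 alone, and for the other M5 arrays line and array set cannot be told apart. KRT7, KRT8, KRT18 and KRT19 lay above the median signal on all 13 arrays, while EPCAM and CDH1 lay below the lower quartile on all of them. Of 5 leukocyte markers measured, 0 lay above the median on all arrays and PTPRC, CD3E and CD53 lay below the lower quartile on all. The summed log2 signal of the leukocyte markers was 20.7 to 21.5 in control arrays and 20.7 to 22.9 in metastatic arrays. Of 6 fibroblast and stroma markers measured, COL1A1 and COL3A1 lay above the median on all arrays and LUM below the lower quartile on all. The summed signal of these 6 was 33.9 to 35.3 in control arrays and 34.3 to 36.4 in metastatic arrays.

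The 40 genes spanned the range of signals on the arrays. Signals are log2 units, and the array medians over all genes ranged from 6.16 to 6.24. Above the median on all 13 arrays lay 14 genes: IFI16, IFI35, IFI44, IFI44L, IFITM2, IFITM3, ISG15, ISG20, OAS1, OAS3, USP18, LGALS3BP, SP110 and EIF2AK2. Below the lower quartile on all 13 lay 11 genes: IFI27, MX2, OAS2, IFIH1, DDX60, RSAD2, GBP2, XAF1, CXCL10, CXCL11 and SAMD9. The remaining 15 fell between or crossed these limits. Over all genes, 44.1% lay above the median on every array and 18.5% below the lower quartile on every array. A signal below the lower quartile may be background, and no detection call was used, so differences in those 11 genes, MX2 and DDX60 among them, may be of background.

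**Figure D2:**
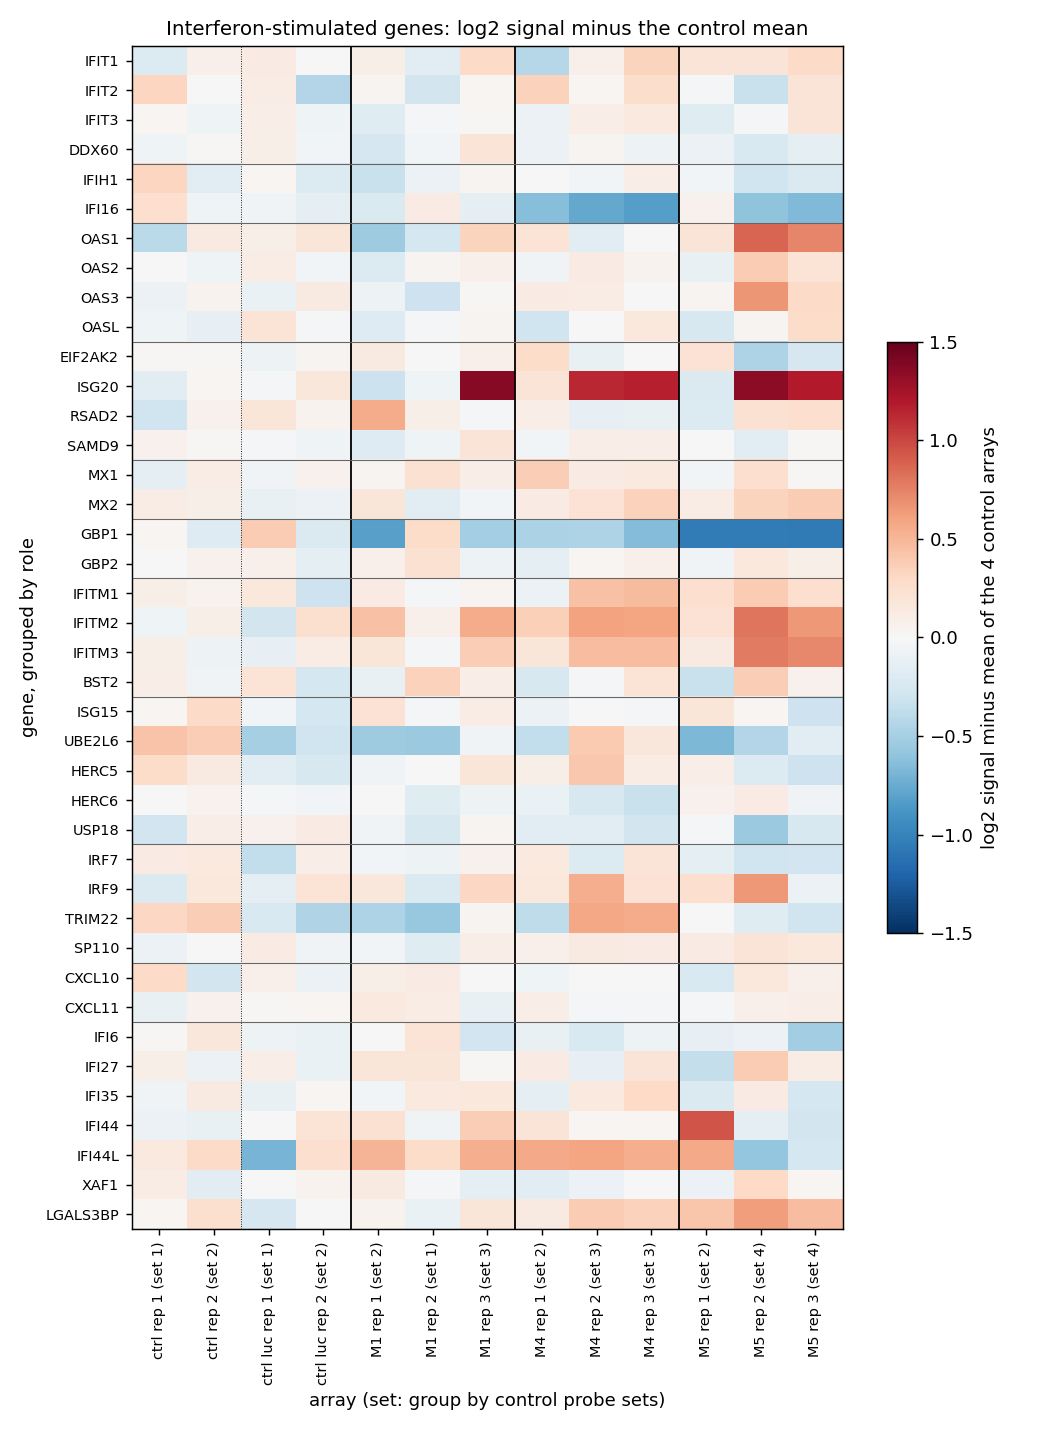
Log2 signal of the 40 genes on the 13 arrays minus the mean of the 4 control arrays, with genes in rows grouped by role and arrays in columns grouped by condition (set: the array's set by control probe sets). GBP1 is low on all M5 arrays, IFI16 on all M4 arrays, and ISG20 is high on the 5 arrays of sets 3 and 4.

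The median difference of the 40 genes lay near 0 in every line. On the log2 scale it was 0.017 for M1, 0.052 for M4 and 0.038 for M5, beside -0.0078, -0.0011 and 0.031 over all genes. With the array sets as a block it was -0.031, -0.0032 and 0.020. The sign of the difference was mixed: 20 genes were above and 20 below control in M1, 26 and 14 in M4, and 23 and 17 in M5. Here called means that the p from limma, adjusted over all genes by Benjamini and Hochberg, was under 0.05. In M1, 0 of 40 genes were called without the block, where 0.0251% of all genes were, and 0 with it, where 0.234% were. In M4 the count was also 0 in both fits, beside backgrounds of 0.092% and 0.15%. At an unadjusted p under 0.05, the fit without the block had 0 genes for M1 and 7 (17.5%) for M4, beside 3.08% and 6.91% of all genes. The fit with it had 5 (12.5%) for each of them, beside 9.51% and 7.01%.

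M5 was the line in which interferon-stimulated genes passed the test without the block. LGALS3BP rose and GBP1 fell, which is 5% of the 40 genes beside 2.37% of all genes called. With the block, 2 other genes were called, IFI44 upward and UBE2L6 downward, again 5%, beside 1.98% of all genes. No gene of the list was called in M5 by both fits. At an unadjusted p under 0.05, 9 genes (22.5%) passed without the block and 4 (10%) with it, beside 18% and 15.3% of all genes. Without M5 replicate 1, and with no block, 11 genes were called (EIF2AK2, GBP1, IFI16, IFITM2, IFITM3, ISG20, LGALS3BP, MX2, OAS1, OAS3 and USP18) along with 3062 of all genes. That fit sets only the arrays of set 4 against the controls, and the part of the array set in these calls cannot be told apart from the line. Without M5 replicate 2 or 3 the count was 0. For the mean of the 3 lines, 0 genes were called without the block (background 0.0251%), where 5 (12.5%) had an unadjusted p under 0.05 beside 8.16% of all genes, and 1 with it, UBE2L6 (2.5%, background 0.527%).

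GBP1 encodes an interferon-induced GTPase that acts against intracellular pathogens and is a strong target of interferon gamma. Its signal was 6.43 and 6.21 in controls without luciferase and 6.79 and 6.19 in controls with it. In M5 it was 5.36, 5.35 and 5.35, so that all M5 arrays lay below all controls. The M4 arrays, at 5.93, 5.94 and 5.76, also lay below all controls. In M1 the values 5.59 and 5.89 lay below the controls, and 6.68, on the array of set 1, lay among them. M5 averaged 5.35 ± 0.0052 (SD, n = 3) and control 6.41 ± 0.28 (SD, n = 4). The log2 difference was -1.05 ± 0.214 (moderated SE, adjusted p = 0.0243 in limma), or 2.08 times lower.

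With the array sets as a block the difference of GBP1 in M5 was -0.74 ± 0.196, with an adjusted p of 0.0928 in limma, which did not pass. Within set 2, M5 replicate 1 lay 0.84 log2 units below the mean of the 2 controls there (-0.84). A second probe set for GBP1 read 4.73, 3.56 and 4.28 in M5 against 5.03 to 5.49 in controls, a difference of -0.99 without the block and -0.40 with it. Set 1 holds the highest control values of GBP1 and the highest M1 value. Its neighbour GBP2, within 200 kb on chromosome 1, stayed below the lower quartile on all arrays.

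LGALS3BP, a secreted glycoprotein that binds galectins and is interferon-responsive, lay above the array median on all arrays. Controls read 10.36 and 10.57 without luciferase and 10.08 and 10.33 with it. The M5 arrays read 10.75, 10.96 and 10.79, all above every control. M4 read 10.47, 10.71 and 10.68, and M1 read 10.38, 10.23 and 10.52, so both of these lines overlapped the controls. The difference in M5 was 0.50 ± 0.115 (adjusted p = 0.0417 in limma), or 1.41 times higher. With the block it was 0.32 ± 0.116 (adjusted p = 0.221 in limma), and within set 2 it was 0.30. Both calls of the fit without the block, GBP1 and LGALS3BP, were also lost with only the M5 and control arrays fitted (adjusted p = 0.0562 and 0.175 in limma), with either kind of control alone, and without some single arrays. In every alternative run the differences kept their sign, at -1.2 to -0.74 for GBP1 and 0.32 to 0.63 for LGALS3BP. A block by replicate number gave adjusted p of 0.0861 and 0.0949 in limma. The numbers were not taken as pairing M5 with control arrays, so nothing is concluded from that block.

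IFI44, a cytoplasmic protein induced by interferon alpha and beta, was called in M5 only through the block, and the call rests on 1 array. M5 replicate 1 read 8.22, the highest of all 13 arrays. M5 replicates 2 and 3 read 7.15 and 7.0, the lowest of all. Controls lay at 7.16 to 7.48, M1 at 7.51, 7.23 and 7.65, and M4 at 7.47, 7.30 and 7.30. Without the block the difference in M5 was 0.17 ± 0.23 (adjusted p = 0.717 in limma). With the block it was 0.84 ± 0.144 (adjusted p = 0.0182 in limma), and without M5 replicate 1 it was -0.21. A second, dim probe set for IFI44 was also highest on M5 replicate 1, at 4.25 against 3.69 to 4.04 elsewhere.

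**Figure D3:**
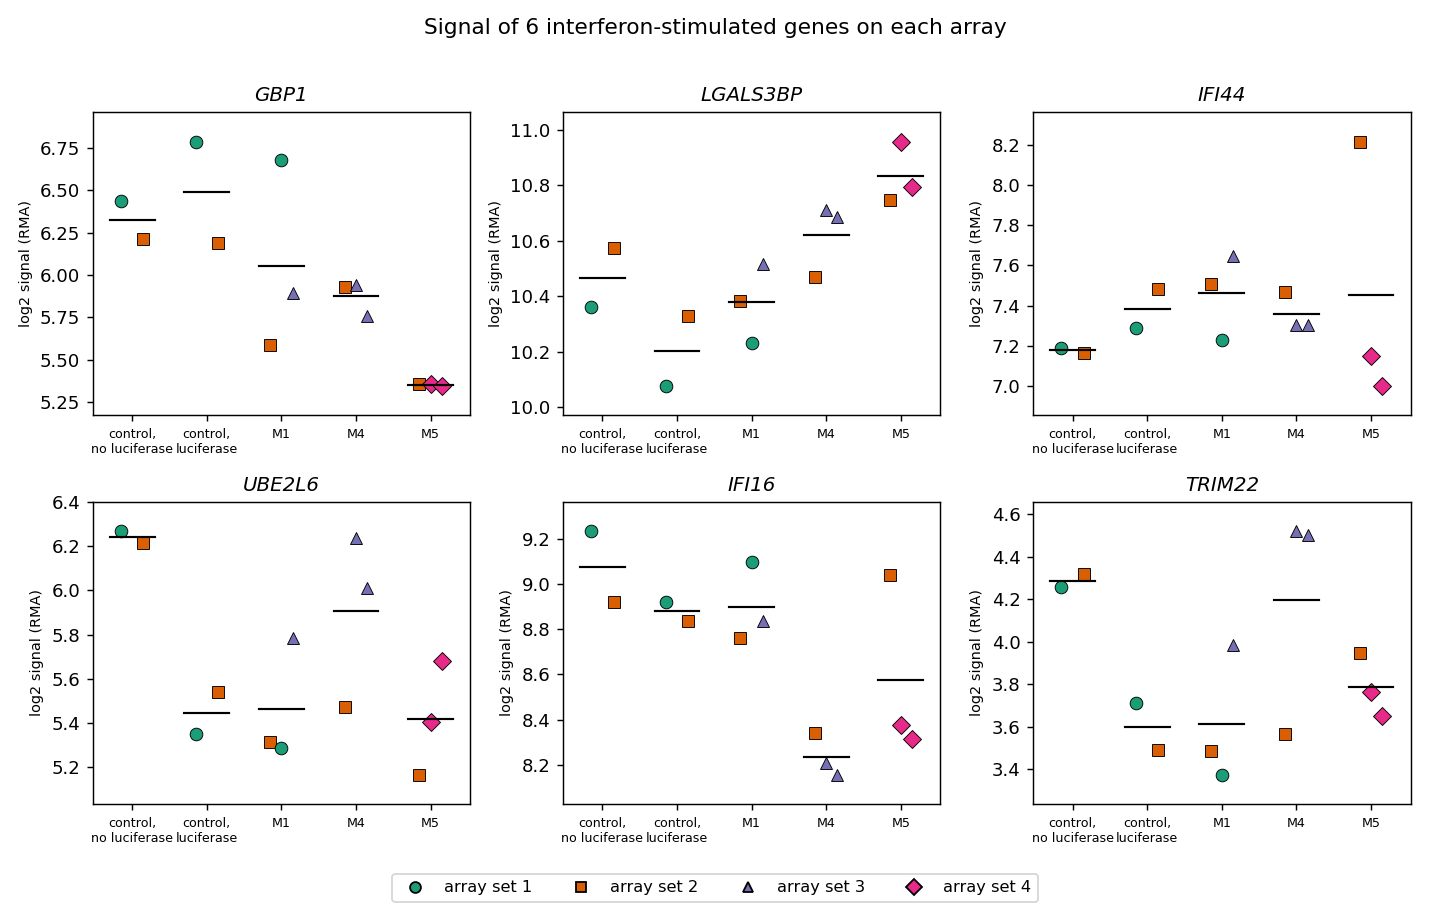
Log2 signal of GBP1, LGALS3BP, IFI44, UBE2L6, IFI16 and TRIM22 on each array (y axis) by group (x axis). Symbols give the array set and horizontal bars the group mean. The 3 M5 values of GBP1 coincide at about 5.35, and IFI44 is high on M5 replicate 1 alone, at 8.22.

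UBE2L6 encodes the conjugating enzyme that attaches the ubiquitin-like protein ISG15 to its targets. It differed more between the 2 kinds of control than between control and any line. Without luciferase it read 6.27 and 6.22, and with luciferase 5.35 and 5.54. M1 read 5.31, 5.29 and 5.79, M5 read 5.16, 5.40 and 5.68, and M4 read 5.47, 6.24 and 6.01. Against the mean of the controls the block fit gave -0.70 ± 0.15 in M5 (adjusted p = 0.0429 in limma) and -0.53 ± 0.096 for the mean of the lines (adjusted p = 0.0414 in limma). Against the luciferase controls alone, without the block, the difference was 0.018 in M1, -0.028 in M5 and 0.15 for the mean of the lines, so the direction turned for M1 and for the mean of the lines, and not for M5.

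The luciferase comparison itself called 0 of the 40 genes without the block, where 0% of all genes were called and 3 of the list (7.5%) had an unadjusted p under 0.05 beside 1.29% of all genes, and 0 with it, where 0.0167% were called. UBE2L6 had the largest difference between the controls, -0.80 ± 0.244 (adjusted p = 1 without the block, 0.112 with it, in limma). TRIM22, a ubiquitin ligase that restricts viruses, came next at -0.69 ± 0.283. It lay below the lower quartile on 12 of the 13 arrays, so its differences may be of background. TRIM22 read 4.26 and 4.32 without luciferase and 3.71 and 3.49 with it. On the lines it read 3.49, 3.37 and 3.98 in M1, 3.57, 4.52 and 4.50 in M4 and 3.95, 3.76 and 3.65 in M5. TRIM22 and UBE2L6 were thus both low on M1 replicates 1 and 2 and M4 replicate 1, and higher on M4 replicates 2 and 3.

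IFI16, a nuclear sensor of DNA, was lowest in M4. Its M4 arrays read 8.34, 8.21 and 8.15, below every control array (8.84 to 9.23). M1 read 8.76, 9.10 and 8.84. In M5 the arrays parted: replicate 1 read 9.04 and replicates 2 and 3 read 8.37 and 8.31. M4 against control was -0.74 ± 0.165 (adjusted p = 0.205 in limma) without the block and -0.58 ± 0.103 (adjusted p = 0.0616) with it, and neither passed. A fit of only the M4 and control arrays called it, with an adjusted p of 0.0331 in limma. Within set 2, M4 replicate 1 lay 0.54 log2 units below the controls (-0.54). The other 2 probe sets of IFI16 gave -0.62 and -0.80 without the block.

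Between the lines, IFI44 and IFI16 were the genes called. Without the block, 0 genes were called between M4 and M1, M5 and M1 or M5 and M4, where 0.0251%, 1.23% and 2.16% of all genes were, and 3, 6 and 6 (7.5%, 15% and 15%) had an unadjusted p under 0.05, beside 2.83%, 14.8% and 15.1% of all genes. With the block, M4 against M1 gave 0 (background 0.117%). M5 against M1 gave 1, IFI44 (2.5%, background 1.61%), higher in M5 by 0.70 (adjusted p = 0.0462 in limma). M5 against M4 gave 2 (5%, background 1.85%): IFI44 by 0.87 ± 0.158 (adjusted p = 0.0244) and IFI16 by 0.76 ± 0.135 (adjusted p = 0.0225). These comparisons share arrays with those against control, and with the block those of M5 rest on M5 replicate 1.

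Counting arrays that do not overlap gave more genes than the test. In M1, 0 of the 40 had all arrays beyond all controls, beside 5.94% of all genes. In M4 there were 9 (22.5%, background 11.4%): IFI44L, IFITM2, IFITM3, ISG20, MX1 and MX2 above and IFI16, GBP1 and HERC6 below. In M5 there were 7 (17.5%, background 12.2%): IFIT1, IFITM1, IFITM3, OAS1 and LGALS3BP above and DDX60 and GBP1 below. MX2 and DDX60 are among the genes below the lower quartile on all arrays. For all 9 metastatic arrays together the count was 0, beside 0.602%.

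**Figure D4:**
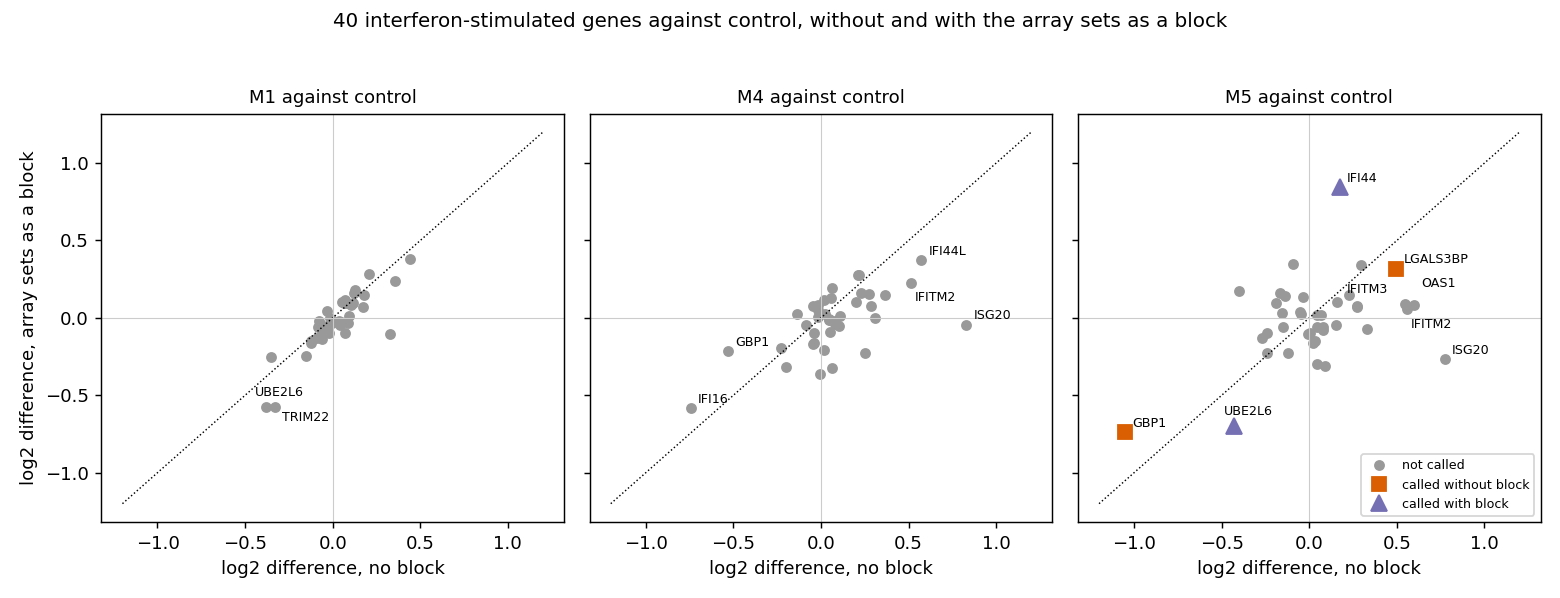
Log2 difference from control of the 40 genes in each line, without the block (x axis) and with the array sets as a block (y axis). The dotted line marks equal values, squares the genes called without the block and triangles those called with it. In M5, ISG20, IFITM2 and IFITM3 lie near or below 0 with the block while IFI44 moves from 0.17 to 0.84.

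ISG20, a nuclease that degrades single-stranded RNA, had the widest range of the list and was high on the 5 arrays of sets 3 and 4, which hold no control. It read 8.49 to 8.72 on the 5 arrays of sets 3 and 4 and 7.03 to 7.55 on the 8 arrays of sets 1 and 2. The controls read 7.19 and 7.38 without luciferase and 7.32 and 7.53 with it, M1 7.03, 7.29 and 8.72, M4 7.55, 8.49 and 8.52, and M5 7.14, 8.70 and 8.54. The array set held 95% of its sum of squares and the group 30.1%. The difference from control was 0.83 ± 0.425 in M4 and 0.77 ± 0.425 in M5 without the block, and -0.04 and -0.27 with it. The spike-in sets put the arrays of set 3 with those of set 1, and so M1 at 7.29 with M1 at 8.72. With them as the block the difference was 0.75 in M4 and 0.021 in M5. Within the lines, M1, M4 and M5 arrays read 7.03 to 7.55 on sets 1 and 2 and 8.49 to 8.72 on sets 3 and 4. The cause of this split in ISG20 was not tested. Its second probe set gave 0.85 and 0.83 without the block and 0.0035 and -0.24 with it.

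The interferon-induced transmembrane proteins IFITM2 and IFITM3, which stop viruses entering cells, also differed between the sets. IFITM3 read 11.14 to 11.40 on set 2, 11.59 to 11.68 on set 3 and 11.94 to 11.99 on set 4. Its difference in M5 was 0.55 ± 0.16 without the block and 0.09 ± 0.133 with it. For IFITM2 the controls read 9.24, 9.39, 9.03 and 9.55, M1 9.74, 9.38 and 9.86, M4 9.66, 9.91 and 9.89, and M5 9.52, 10.11 and 9.95. The difference of IFITM2 in M5 was 0.56 ± 0.17 without the block (adjusted p = 0.114 in limma) and 0.05 ± 0.131 with it. The array set held 88% of the sum of squares of IFITM2 and 92.4% of that of IFITM3. The IFITM genes are close relatives side by side on chromosome 11, and a probe set that names both IFITM1 and IFITM2 was left out, so their probes may not separate them fully. IFITM1 read 4.66, 4.79 and 4.66 in M5, above controls of 4.10 to 4.57, with a difference of 0.30 ± 0.147 without the block and 0.34 ± 0.186 with it, neither called. BST2, which tethers budding virus, read 4.25 to 4.95 and was called in no comparison.

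Across the list, the array set held more of the sum of squares than the group in 27 genes and less in 13, with medians of 54.4% and 36.5%. Group and set overlap in this design, so these shares do not add up and their parts cannot be told apart.

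**Figure D5:**
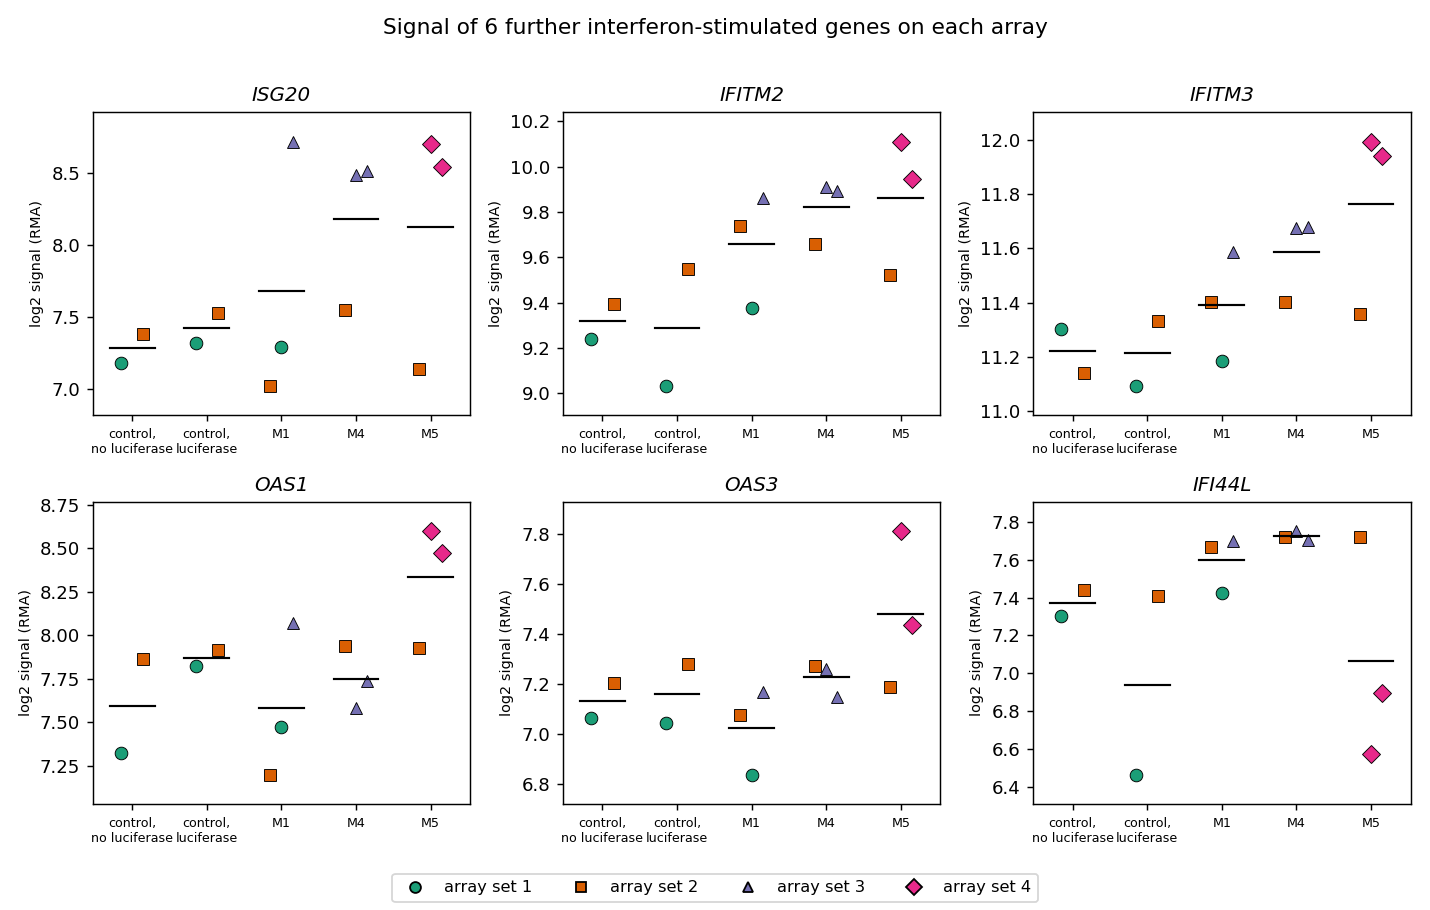
Log2 signal of ISG20, IFITM2, IFITM3, OAS1, OAS3 and IFI44L on each array (y axis) by group (x axis), with symbols for the array set and bars for the group mean. ISG20 reads 8.49 to 8.72 on sets 3 and 4 and 7.03 to 7.55 on sets 1 and 2.

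The enzymes OAS1, OAS2 and OAS3 make the messenger that activates the nuclease RNase L. OAS1 read 8.60 and 8.47 on M5 replicates 2 and 3 and 7.93 on replicate 1. The controls read 7.32, 7.87, 7.82 and 7.92, M1 7.20, 7.47 and 8.07 and M4 7.94, 7.58 and 7.73. On this probe set all M5 arrays exceeded all controls, but by only a little on replicate 1. A second probe set for OAS1 read 7.33, 7.96 and 7.84 in M5, where replicate 1 lay among controls of 6.71 to 7.50. On the first probe set the difference of OAS1 in M5 was 0.60 ± 0.215 (adjusted p = 0.176 in limma) without the block and 0.09 ± 0.268 with it. OAS3, next to it on chromosome 12, read 7.81 and 7.44 on M5 replicates 2 and 3 and 6.84 to 7.28 on all other arrays. OAS2 was below the lower quartile on all arrays and OASL read 5.55 to 6.12.

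IFI44L, a relative of IFI44 beside it on chromosome 1, had tight values in M4 at 7.72, 7.75 and 7.70, all above the controls. The controls read 7.31 and 7.44 without luciferase and 6.46 and 7.41 with it. M1 read 7.67, 7.43 and 7.70. M5 read 7.72, 6.58 and 6.90, so the arrays of set 4 were low here, as they were for IFI44. M4 against control was 0.57 ± 0.248 (adjusted p = 0.69 in limma) and 0.37 ± 0.173 with the block. Without the luciferase control at 6.46 it was 0.33.

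The IFIT proteins bind foreign RNA; IFIT1, IFIT2, IFIT3 and the helicase DDX60 read 3.83 to 5.97, and their differences from control ran from -0.15 to 0.23 in the 3 lines without the block and from -0.36 to 0.28 with it. The MX proteins trap viral capsids and had differences of -0.0047 to 0.27 without the block. MX1 in M4 was 0.21 ± 0.112 without the block and 0.28 ± 0.124 with it, and MX2 was 0.23 ± 0.109 and 0.16 ± 0.118. None of these passed in limma, and MX1 lay below the lower quartile on 12 of the 13 arrays and MX2 on all of them. The ISG15 system, in which ISG15 is attached by UBE2L6 and HERC5 and removed by USP18, had 0 calls without the block, and UBE2L6 as its 1 called member with it. HERC6, a relative of HERC5 beside it on chromosome 4, was -0.23 ± 0.0947 in M4 without the block and -0.20 ± 0.105 with it. ISG15 itself read 6.35 to 6.95, with 0.11 ± 0.127 in M1 and -0.04 ± 0.127 in both M4 and M5. Of the regulators, IRF9, the DNA-binding subunit of the interferon-activated complex, read 4.91 to 5.78, with a difference of 0.31 ± 0.189 in M4 and -0.0010 ± 0.193 with the block. IRF7, which amplifies interferon production, read 4.64 to 5.21 and had -0.24 ± 0.13 in M5.

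The chemokines CXCL10 and CXCL11, which draw T cells and are classical targets of interferon gamma, read 3.21 to 4.13 and lay below the lower quartile on all arrays. EIF2AK2, the kinase PKR that halts translation when it binds double-stranded RNA, read 8.02 to 8.76 and had -0.17 ± 0.147 in M5 without the block and 0.16 ± 0.136 with it, neither called. SP110, a nuclear body protein, varied by 0.38 over the 13 arrays, from 7.09 to 7.47, and its other probe sets varied by 0.48 to 0.72. IFI35, IFI6 and the apoptosis-linked XAF1 read 7.29 to 7.85, 5.78 to 6.5 and 3.99 to 4.45. RSAD2 (viperin), IFI27, IFIH1 (the RNA sensor MDA5) and SAMD9 stayed below the lower quartile throughout, and none of these genes was called in any comparison in either fit. In the genome, 19 of the 40 genes lie in 8 groups of neighbours within 200 kb, on 13 chromosomes in all for the list. Neighbours could differ: IFI44L lay above all controls in M4 while IFI44 read 7.47, 7.30 and 7.30 there, among controls of 7.16 to 7.48.

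Among the ligands, receptors and other parts of the pathway, 77 genes outside the list were measured. Of 14 interferon ligand genes, 13 lay below the lower quartile on all arrays, and IFNB1, which encodes interferon beta, read 3.82 to 4.48. IFNAR1 read 3.83 to 4.49, while IFNAR2 read 7.05 to 7.41. The kinase TYK2 read 6.28 to 6.93. JAK1 read 8.15 to 8.69 on sets 1 and 2 and 9.01 to 9.44 on sets 3 and 4, with 0.61 ± 0.26 in M4 without the block and 0.04 ± 0.128 with it. IRF1, a transcription factor induced by interferon gamma, read 5.53 to 6.21. None of these 6 genes was called against control.

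In M5, 3 of the 77 pathway genes (3.9%) were called without the block and 2 (2.6%) with it, beside 2.37% and 1.98% of all genes, and in M1 and M4 the count was 0 in both fits. SAMHD1, which depletes the nucleotides that viruses need, rose in M5 in both fits. It read 6.03, 5.72 and 5.65 in M5 against 5.07 to 5.46 in controls, a difference of 0.52 ± 0.111 (adjusted p = 0.0306 in limma) without the block and 0.80 ± 0.111 (adjusted p = 0.0067) with it. KPNA1, an importin that carries activated signalling factors into the nucleus, fell in both fits. It read 7.99, 7.77 and 8.0 in M5 and 8.49 to 8.61 in controls, a difference of -0.60 ± 0.119 (adjusted p = 0.0229 in limma) without the block and -0.60 ± 0.13 (adjusted p = 0.0439) with it.

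PLSCR1, a scramblase with antiviral activity, fell in M5 by 0.70 (SE 0.151, adjusted p = 0.0306 in limma) without the block, and with it the difference was -0.30 ± 0.113 (adjusted p = 0.238). KPNA1 and PLSCR1 both lie on chromosome 3, as do LAMP3, RTP4 and TNFSF10 of the pathway genes. LAMP3, RTP4 and TNFSF10 lay below the lower quartile on all arrays. Their means were 3.73, 3.96 and 3.65 in M5 and 3.68, 3.59 and 3.60 in control, so they were not lower in M5. On chromosome 3 the median difference in M5 over 655 genes was -0.29, against 0.031 over all genes. Of the 655, 141 were called downward and 1 upward. Whether the chromosome bears on the falls of KPNA1 and PLSCR1 was not tested. None of the 40 interferon-stimulated genes lies on chromosome 3.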

How the data were processed

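The authors deposited log2 signals of 22277 probe sets on 13 arrays, made with RMA per the submitters' processing notes; its version is not given in the sources used here. RMA fits all arrays together, so no signal is independent of the others, and small signals are compressed. No read depth applies, and the number of arrays limits the precision. Probe sets were named from the platform annotation. Of them, 19064 name 1 gene, and 62 control probe sets served only to group the arrays. The brightest probe set stood for each of 11963 genes, with no filter.

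The tests used limma 3.58.1 under R 4.3.3, fitting 5 group means over all 13 arrays, with Benjamini-Hochberg adjustment over all genes and a threshold of 0.05. Control is the mean of both kinds of control. A difference is given with its moderated standard error and a mean signal with its SD. The array sets come from Ward clustering of the control probe sets and were added as a block. Deviations of same-numbered arrays correlated at 0.46, 0.26 and 0.20 between M4 and M5, and numbers were taken as pairing those 2 lines. Differently numbered arrays of M4 and M5 correlated at -0.47 to 0.46, so these correlations do not establish the pairing. Replicate 1 of both lines is in array set 2. The code was tested on simulated data. The members and gene lists were chosen with earlier results of these data known.

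Values on every array are given for genes called in any comparison in either fit and for those with the largest differences from control in each line and between the controls. Of the pathway genes outside the list, the called ones and a few fixed receptors, kinases and factors are named. Genes singled out otherwise were chosen after their values were seen. Promoters and chromosomes are from RefSeq (GRCh38.p14), matched by symbol. Alternatives were a block by replicate number, a fit of only the groups compared, a robust prior with intensity trend, averaging a gene's probe sets, a filter on dim genes, centring on array medians, quantile normalization, either control alone and each array left out in turn. A block of 3 sets from the 45 spike-in probe sets was added after seeing the data.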

Additional observations from a re-analysis of the deposited data

Results flagged for a closer look

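Among the 4 control arrays, 1 value of IFI44L stood far from the others: the luciferase control replicate 1 read 6.46, where the next lowest read 7.31. In OAS1 the control without luciferase replicate 1 read 7.32, where the next lowest read 7.82. About 1 in 20 such groups of 4 would be picked out by chance.

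With the array sets as a block, 3 differences between lines passed in limma: IFI44 was higher in M5 than in M1 by 0.70 and than in M4 by 0.87, and IFI16 was higher in M5 than in M4 by 0.76. M5 replicate 1 is the only M5 array that shares a set with other groups, so these 3 differences rest on it.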

How the results depend on the processing

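The median difference of the 40 genes moved by less than the spread between arrays in all 8 comparisons under every alternative run. In M1, between M4 and M1 and between the controls, 0 genes were called under each. For M5 against control, main count 2, the replicate block gave 0, only the arrays compared 0, leaving out dim genes 1 (14 genes tested), either control alone 0 and the spike-in sets as a block 1. Leaving out 1 array gave 0 to 11. The count of 11 came without M5 replicate 1, when 3062 of all genes were called; it was 0 without M5 replicate 2 or 3, either control without luciferase or luciferase control replicate 1. The adjusted p of GBP1 ran from 0.0056 to 0.21 and that of LGALS3BP from 0.0091 to 0.372.

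M4 against control, main count 0, gave 1 (IFI16) with only the arrays compared and with the spike-in sets as a block, and 0 to 1 leaving out 1 array (1 without M5 replicate 1), with 33, 49 and 32 of all genes called in those fits. M5 against M1, main 0, gave 1 with the block of array sets and 0 to 8 leaving out 1 array (8 without M5 replicate 1), beside 193 and 2366 of all genes. M5 against M4, main 0, gave 2 with that block, 1 with the spike-in sets and 0 to 4 leaving out 1 array (4 without M5 replicate 1), beside 221, 118 and 2443. The mean of the lines, main 0, gave 1 with the block and 0 to 3 leaving out 1 array (3 without M5 replicate 1, 1 without M1 replicate 2), beside 63, 292 and 13.

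These directions turned, and the cause was not tested. IFI44 in M5 against M1 was -0.0062, and 0.70 with the block, 0.69 with the spike-in sets, 0.073 as the mean of its probe sets and -0.39 to 0.22 leaving out 1 array. Leaving out 1 array, IFI44 ran from -0.21 to 0.40 in M5 against control and from -0.29 to 0.32 in M5 against M4, and IFI44L between the controls from -0.91 to 0.038. ISG20 with the block was -0.043 in M4 and -0.27 in M5. UBE2L6 against the luciferase controls was 0.018 in M1 and 0.15 for the mean of the lines.

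Over the 23 same-numbered pairs of arrays the correlations of their deviations ran from -0.51 to 0.53, with 7 above 0.1. Over the 44 pairs with other numbers they ran from -0.53 to 0.51, with 19 above 0.1. In a group of 2 arrays the deviations are equal and opposite, so pairs with control arrays mirror each other. These pairs are not separate observations, and the 2 ranges are partly fixed in advance. The numbers were taken as pairing the arrays only between M4 and M5, where the replicate block gave 0 genes, as without it. Groups of 2 or 3 arrays, and M5 arrays of a set of their own, limit what can be told about this line.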
